A study of Bos taurus with 48 samples.

Results

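The miRNAs miR-192, miR-194 and miR-215 were followed in 48 bovine miRNA-seq libraries. Their members were the rows of the normalised table named bta-miR-192, bta-miR-194 with any copy number, or bta-miR-215, and no measured value was used to choose them. This gave 4 of 524 miRNAs, namely bta-miR-192, bta-miR-194-1, bta-miR-194-2 and bta-miR-215. The libraries came from liver (17), mammary parenchyma (15) and mammary fat pad (16) of cattle, taken after slaughter. The labels name the feeding groups ad libitum (milk replacer without limit), restricted (a restricted amount of milk replacer) and control, and describe the control diet no further. There were 6 libraries of ad libitum, 6 of restricted and 5 of control animals for the liver, 6, 6 and 3 in that order for parenchyma, and 6, 6 and 4 for the fat pad. The ad libitum and restricted libraries together are called milk replacer libraries (12 in each tissue). The labels give no strain, age or genotype, and they do not say whether libraries that carry the same number in several tissues came from 1 animal. What the p-values measure is therefore the variation among these libraries, some of which may be technical.

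These miRNAs come from a pair of gene clusters in mammals, each with a copy of miR-194. In the RefSeq annotation of the bovine genome used here for names and neighbours, MIR192 and MIR194-2 were on the same chromosome with 0 genes between them, both within the span of EHD1. MIR215 and MIR194-1 were likewise on the same chromosome with 0 genes between them, both within the span of IARS2. In humans miR-192 and miR-215 carry the same seed, the short stretch near the 5′ end that recognises target mRNAs, whereas miR-194 has another. The family is known as a set of miRNAs of epithelia such as those of liver, intestine and kidney. Hepatocyte nuclear factors drive its genes there, and in human cells p53 raises it.

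The values were normalised read counts, which the authors had obtained by dividing reads by a size factor for each library. Within a library every value was a whole multiple of the same step (tolerance 0.01). The lowest nonzero value stood for 6 reads, so a miRNA listed at 0 can have had up to 5 reads. The estimated reads assigned to miRNAs numbered 826776 to 5146724 for liver libraries, 6193678 to 11291532 for parenchyma and 2123962 to 9522666 for fat pad. The members were above 0 in all 48 libraries. The fewest reads behind a value of bta-miR-192 were 84238 in the liver and 1029 in the mammary gland, and for bta-miR-215 they were 333 in the liver and 134 in the mammary gland. The similarly named bta-miR-194b-3p is not a member, and it was above 0 in 1 library only (parenchyma restricted 16, 2.66 normalised read counts, 6 reads).

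The labelled tissues were checked against miRNAs that mark cell types. miR-122, the main hepatocyte miRNA, ranged from 284363 to 987770 normalised read counts in liver libraries and from 0 to 3798 in mammary libraries. The summed level of 10 epithelial miRNAs, among them the miR-200 family and miR-205, ranged from 61371 to 110903 in the parenchyma of milk replacer animals against 17.4 to 436 for fat pad libraries. In the 3 control parenchyma libraries this sum was 92.5 to 421, which lies within the range of the fat pad, and 2 of the 10 were at 0 in all 3. These 3 libraries thus go against their tissue label for the epithelium, and tissues were therefore compared in the milk replacer libraries and, separately, in the control libraries.

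bta-miR-192 was among the most abundant miRNAs of the bovine liver and a moderate one in the mammary gland. In the liver its lowest, median and highest levels were 326029, 493350 and 700162 normalised read counts in ad libitum libraries, and 378219, 559073 and 992138 in restricted ones. The 5 liver control libraries had 432626, 725879, 300183, 344604 and 366816. The 3 feeding groups overlapped in the liver, and every liver library lay far above every mammary library. bta-miR-192 made up 5.97% to 14.1% of the summed values of a liver library and held rank 1 to 6 among all miRNAs there. In mammary libraries it made up 0.0392% to 0.233%, with ranks 51 to 108.

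In parenchyma the lowest, median and highest levels of bta-miR-192 were 2399, 2810 and 3246 in ad libitum libraries and 2023, 2881 and 3055 in restricted ones. The 3 parenchyma control libraries had 4254, 7819 and 8801, each above all milk replacer libraries of that tissue. In the fat pad the lowest, median and highest were 1763, 2654 and 3118 in ad libitum libraries and 1802, 2270 and 3126 in restricted ones. The 4 fat pad control libraries had 2399, 3039, 3336 and 3621, a range that overlaps that of the milk replacer fat pad.

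bta-miR-194-2, which lies beside miR-192, was likewise far higher in every liver library than in any mammary library, at a lower level than miR-192 in the liver. Its lowest, median and highest levels were 86795, 125316 and 145369 in ad libitum liver and 95411, 131723 and 152553 in restricted liver. In control liver it was 98775, 157308, 94676, 136320 and 96669. It held rank 8 to 15 in liver libraries and rank 85 to 162 in mammary libraries.

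In the mammary gland bta-miR-194-2 was lower in parenchyma than in fat pad when animals had milk replacer. The lowest, median and highest levels were 644, 885 and 1180 in ad libitum parenchyma and 829.3, 916 and 1156 in restricted parenchyma, against 1077, 1420 and 1635 in ad libitum fat pad and 1111, 1544 and 1836 in restricted fat pad. Control parenchyma had 1665, 1960 and 3006, and control fat pad had 1572, 1653, 1854 and 2217. The control libraries of the 2 sites overlapped, while those of the milk replacer animals met only at their margins.

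bta-miR-194-1 moved with bta-miR-194-2 in every library. The ratio of bta-miR-194-1 to bta-miR-194-2 was 0.787 to 0.896 in liver, 0.842 to 0.897 in parenchyma and 0.862 to 0.942 in fat pad. The copies yield the same mature miRNA in humans, and how reads common to both were shared between the rows is not given in the sources used here, so the level of each copy is uncertain and they are not independent measurements. bta-miR-194-1 had medians of 107500, 112604 and 82688 in ad libitum, restricted and control liver. Its medians in the mammary groups lay between 772 and 1720.

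bta-miR-215, the relative of miR-192 in the other cluster, was the least abundant member in every tissue. Its lowest, median and highest levels were 1559, 1962 and 2770 in ad libitum liver and 1661, 2237 and 4988 in restricted liver. In control liver it was 1514, 3634, 1529, 1792 and 1806. The liver libraries restricted 8 and control 2 were the highest in their groups, and both were also the highest of their groups for bta-miR-192 and bta-miR-194-2. As a share of the summed values, restricted 8 had 12.3% for bta-miR-192 and 1.89% for bta-miR-194-2, and was the highest for neither. Restricted 4 had 12.8% for bta-miR-192, and restricted 5 had 2.61% for bta-miR-194-2. Control 2 remained the highest of its group by share, at 13.6% and 2.94%.

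In the mammary gland bta-miR-215 was highest in the fat pad. The lowest, median and highest levels were 99.9, 153 and 352 in ad libitum parenchyma and 84.9, 154 and 216 in restricted parenchyma, against 264, 421 and 782 in ad libitum fat pad and 199, 474 and 649 in restricted fat pad. Control parenchyma had 412, 379 and 350 and control fat pad 406, 480, 291 and 547, ranges that overlap. By median, the order was the same for bta-miR-192, bta-miR-194-1, bta-miR-194-2 and bta-miR-215 in the liver, with restricted, ad libitum and control libraries in falling order, and neighbouring groups overlapped. The members of a library share its size factor. As a share of the summed values, restricted liver libraries instead had the lowest median for bta-miR-194-1 and bta-miR-194-2. The order of the 6 mammary groups differed between members. Control parenchyma came first for bta-miR-192 and bta-miR-194-2 but behind the 3 fat pad groups for bta-miR-215.

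**Figure D1:**
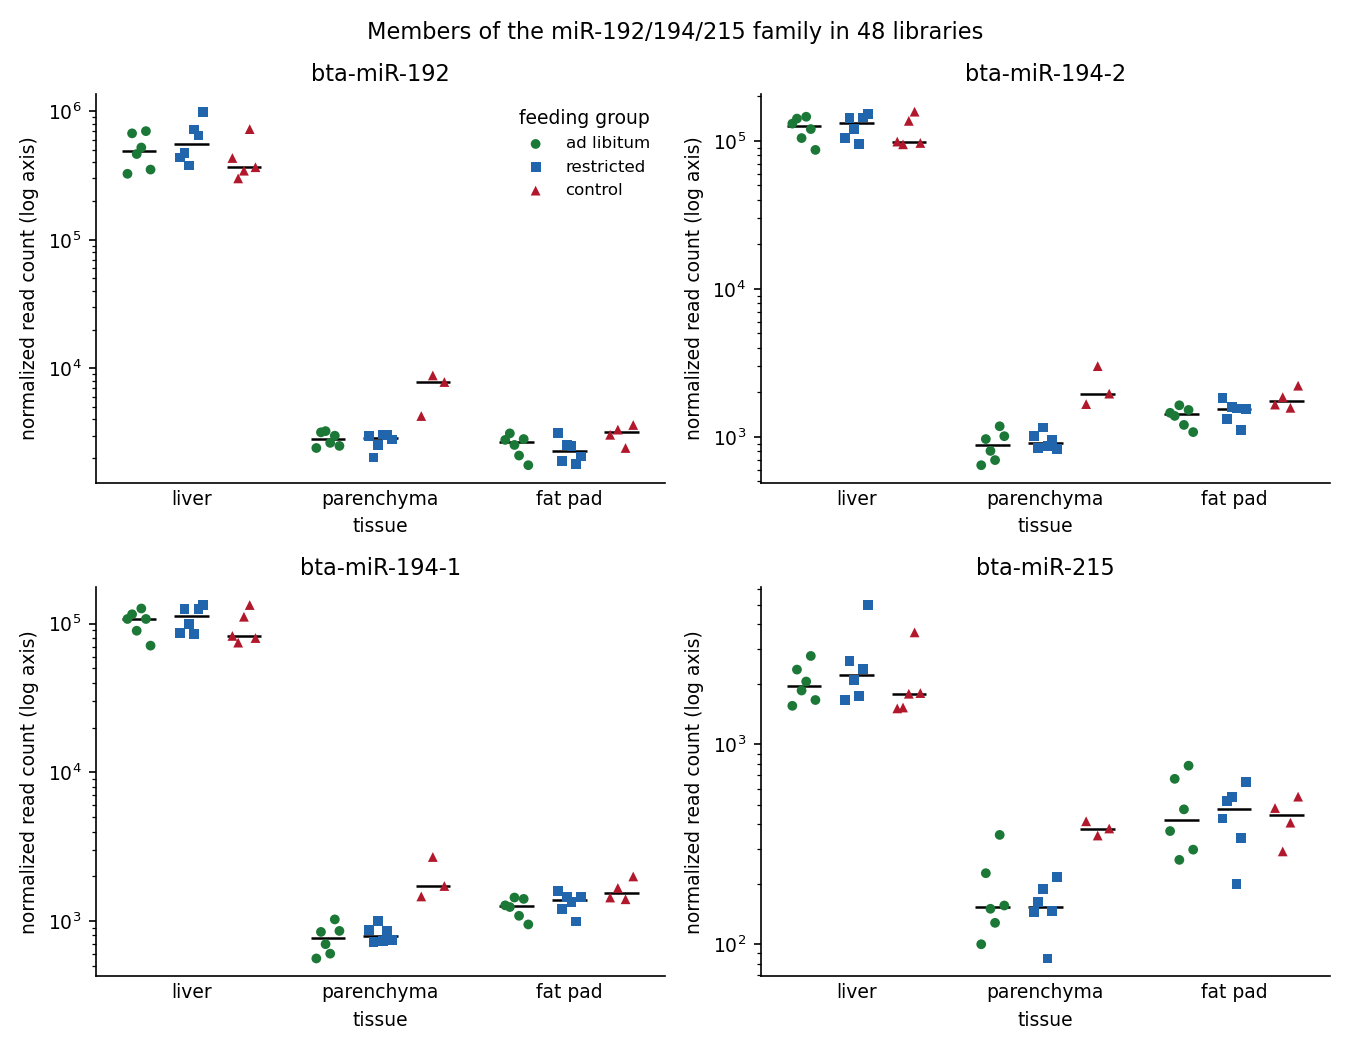
Normalised read counts (vertical axis, log scale) of the 4 members in each of 48 libraries, by tissue (horizontal axis) and feeding group (from left to right within a tissue: ad libitum, restricted, control), with the group median as a black line. All liver libraries lie above all mammary libraries, and the 3 control parenchyma libraries, at 4254 to 8801 for bta-miR-192, lie above the milk replacer parenchyma.

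The first question of the design was how the tissues differ. The whole family was higher in the liver than in either mammary tissue, miR-192 by the widest margin and miR-215 by the smallest. In bulk tissue, fewer cells of a type and less RNA per cell cannot be told apart. In milk replacer animals bta-miR-192 averaged 556934 ± 194927 in the liver and 2778 ± 367 in parenchyma (SD, n = 12 each), which is 200.5 times the parenchyma mean. For bta-miR-194-2 the means were 124009 ± 22029 in the liver and 914 ± 165 in parenchyma (SD, n = 12 each), and for bta-miR-215 they were 2315 ± 930 and 171 ± 70.5.

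Differences were tested with limma, which fits all miRNAs with a mean of at least 10 together, on log2(value + 1), so that a fold change of a low miRNA is understated. p-values were adjusted over all miRNAs tested by the Benjamini-Hochberg procedure, and 0.05 was the threshold. Between liver and parenchyma the log2 fold change was 7.58 for bta-miR-192 (standard error, SE, of 0.15, limma adjusted p = 2.32e-25), 7.08 for bta-miR-194-2 (SE 0.11, limma adjusted p = 5.53e-27) and 3.77 for bta-miR-215 (SE 0.21, limma adjusted p = 4.29e-15). bta-miR-194-1 stood at 7.06. Thus 4 of 4 members were called higher in the liver, where 30.3% of the 343 miRNAs tested were called higher and 45.2% lower. In this and later counts the copies of miR-194 stand as separate members, though they are not independent measurements. By size of the fold change bta-miR-192 ranked 3, bta-miR-194-2 ranked 5, bta-miR-194-1 ranked 6 and bta-miR-215 ranked 16 of the 343, and the median over all of them was -0.39.

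Against the fat pad bta-miR-192 was higher in the liver by a log2 fold change of 7.80 (SE 0.16, limma adjusted p = 5.72e-25), bta-miR-194-2 by 6.43 (SE 0.11, limma adjusted p = 4.88e-27) and bta-miR-215 by 2.35 (SE 0.21, limma adjusted p = 1.59e-10). The means in the fat pad of milk replacer animals were 2418 ± 488, 1436 ± 225 and 462 ± 179 for these miRNAs (SD, n = 12). Again 4 of 4 members were called higher, where 36.4% of 327 miRNAs were called higher and 40.4% lower, and the median over all was -0.20. bta-miR-215 ranked 49 by fold change here, against rank 4 for bta-miR-192 and rank 11 for bta-miR-194-2. For this miRNA the lowest liver library was 1.99 times the highest fat pad library of milk replacer animals, whereas for bta-miR-192 the same quotient was 104.3.

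The control animals gave the same directions for the liver. Against control parenchyma the log2 fold changes were 5.96 for bta-miR-192 (limma adjusted p = 4.31e-07), 5.74 for bta-miR-194-2 (limma adjusted p = 2.99e-07) and 2.35 for bta-miR-215 (limma adjusted p = 0.00119). All 4 members were called higher, where 11.9% of 337 miRNAs were. With libraries of the same number treated as a block, bta-miR-215 did not pass there (2.42, limma adjusted p = 0.0648). Against control fat pad the log2 fold changes were 7.07 for bta-miR-192, 5.98 for bta-miR-194-2 and 2.20 for bta-miR-215 (limma adjusted p = 5.45e-10, 2.77e-10 and 4.64e-05). There 4 of 4 members were called higher against 33.5% of 316 miRNAs. With the control libraries added to those of the milk replacer animals, bta-miR-192 differed by 7.22 between liver and parenchyma and by 7.60 between liver and fat pad on the log2 scale.

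Between the mammary tissues the members went separate ways. In milk replacer animals bta-miR-215 was lower in parenchyma against fat pad by a log2 fold change of -1.41 (SE 0.22, limma adjusted p = 2.35e-06) and bta-miR-194-2 by -0.66 (SE 0.11, limma adjusted p = 5.89e-06). bta-miR-194-1 differed by -0.70. For bta-miR-192 the difference was 0.22 (SE 0.11, 95% interval -0.01 to 0.44, limma adjusted p = 0.0716) and did not pass. Hence 0 members were called higher and 3 lower, among them both copies of miR-194. Of 336 miRNAs 49.7% were called higher and 32.4% lower, with a median over all of 0.37. bta-miR-215 ranked 40 from the bottom of the 336.

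The call on bta-miR-192 between the mammary tissues depended on the libraries and the scaling used. Over all alternatives run, its difference in milk replacer animals ranged from 0.01 to 0.68 (limma adjusted p from 1.57e-06 to 0.941). It passed with the control libraries included (0.38, limma adjusted p = 0.0430), and when parenchyma restricted 13 (0.26, limma adjusted p = 0.0308), fat pad restricted 10 (0.25, limma adjusted p = 0.0365) or fat pad ad libitum 15 (0.25, limma adjusted p = 0.0371) was left out. When each library was rescaled to a sum of 1000000, the difference was 0.68 (limma adjusted p = 1.57e-06), and that of bta-miR-194-2 was -0.20 (limma adjusted p = 0.0852), while bta-miR-215 stayed lower at -0.94. This rescaling moved the median of all miRNAs to 0.77. Relative to that median bta-miR-192 lay lower under both scalings.

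In control animals no member passed between parenchyma and fat pad. bta-miR-192 differed by 1.12 (95% interval 0.31 to 1.92, limma adjusted p = 0.0986), bta-miR-194-2 by 0.24 (-0.53 to 1.01, adjusted p = 0.651) and bta-miR-215 by -0.15 (-0.999 to 0.71, adjusted p = 0.826). None of the 4 members was called, while 1.57% of 319 miRNAs were called higher in this comparison. Of these 319 miRNAs 76 had an unadjusted p below 0.05. Without parenchyma control 1, the control parenchyma library lowest in bta-miR-192, that miRNA passed with 1.44 (limma adjusted p = 0.0128).

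Markers of other cell types moved with the tissue comparisons. The summed level of the 7 hepatocyte-linked miRNAs listed ranged from 941928 to 2559810 in the liver and from 206301 to 642036 in the mammary gland, where miR-148a provides most of it. Of these 7, 6 were called higher in the liver than in the parenchyma of milk replacer animals (median log2 2.16) and 4 higher and 1 lower against the fat pad (median log2 1.59). Of the 10 epithelial miRNAs, 1 was called higher and 9 lower in liver against parenchyma, and 9 of 9 tested were called higher in liver against fat pad. The sum of the 2 miR-126 arms, endothelial miRNAs, was 89178 to 285190 in the liver, 52569 to 106702 in milk replacer parenchyma and 254628 to 431282 in milk replacer fat pad. Of 7 immune miRNAs 6 were called higher and 1 lower in liver against each mammary tissue, and 4 higher and 1 lower in parenchyma against fat pad; their sums were 12496 to 42087, 6705 to 15777 and 3508 to 5094 in liver, parenchyma and fat pad of milk replacer animals. Of 3 erythroid miRNAs 3 were called higher in liver against parenchyma and 2 in liver against fat pad, while 2 of 2 tested were lower in parenchyma against fat pad. Of 6 stromal miRNAs 1 was called higher and 4 lower in liver against parenchyma, 1 higher and 5 lower in liver against fat pad, and 1 higher and 3 lower in parenchyma against fat pad. The adipocyte-linked miR-378-2 was lower in liver against fat pad (log2 -3.13, limma adjusted p = 3.93e-14). It was also lower in parenchyma against fat pad (-4.60, limma adjusted p = 1.00e-04). In liver against parenchyma it was not called (1.48, limma adjusted p = 0.167). The part of cell composition in the differences of the family was not tested.

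The hepatocyte miRNA miR-122 was set beside bta-miR-192, since its level in the liver is of the same size. In the liver the ratio of miR-192 to miR-122 ranged from 0.356 to 2.37. In mammary libraries it ranged from 0.667 to 2245, with a median of 28.4 over the 30 libraries in which miR-122 was above 0, and it lay within the range of the liver in 2 of the 31. In fat pad restricted 10 miR-122 was listed at 0 and bta-miR-192 was 3126, the highest value of the milk replacer fat pad. In fat pad ad libitum 3, which had the highest mammary miR-122 with 3798, bta-miR-192 was 2534. Parenchyma control 1 had 3058 of miR-122 and the lowest bta-miR-192 of the control parenchyma, 4254. The part of liver RNA in the mammary levels was not tested.

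**Figure D2:**
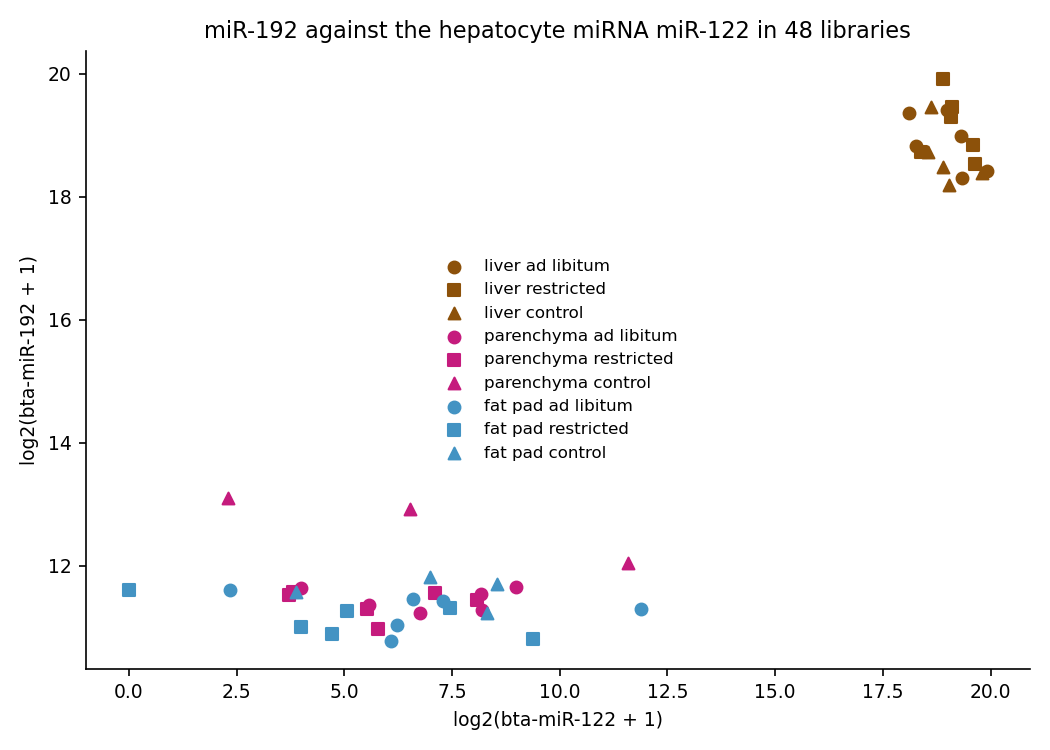
Level of bta-miR-192 (vertical axis, log2 of normalised read count + 1) against that of miR-122 (horizontal axis, same scale) in 48 libraries, coloured by tissue and shaped by feeding group. Mammary libraries span miR-122 values of 0 to 3798 at bta-miR-192 values of 1763 to 8801, apart from the cluster of liver libraries.

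The second question was how the members of the clusters stand to each other within a library. Such a ratio does not depend on the size factor. The ratio of miR-192 to miR-194-2 was highest in the liver, lower in parenchyma and lowest in the fat pad. Their genes lie in the same cluster. Since the level of each miR-194 copy is uncertain, ratios and relations with the bta-miR-194-2 row cannot be assigned to 1 cluster. Its lowest, median and highest values were 2.50, 4.31 and 7.56 in liver, 2.19, 3.23 and 4.04 in parenchyma and 1.34, 1.63 and 2.25 in the fat pad of milk replacer animals. The ranges of liver and fat pad did not overlap, whereas liver and parenchyma overlapped widely.

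On the log2 scale the miR-192 to miR-194-2 ratio averaged 2.11 ± 0.46 (liver), 1.61 ± 0.29 (parenchyma) and 0.74 ± 0.19 (fat pad; SD, n = 12 each). Liver exceeded parenchyma by 0.50 (permutation test, two-sided, adjusted p = 0.00404) and the fat pad by 1.37 (permutation test, adjusted p = 2.57e-05), and parenchyma exceeded the fat pad by 0.87 (permutation test, adjusted p = 2.57e-05). The p-values were adjusted over 9 tests, 3 ratios in 3 pairs of tissues.

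The ratio of miR-215 to miR-194-2 ran in the opposite order. Its lowest, median and highest values were 0.0119, 0.0176 and 0.0327 in the liver, 0.0972, 0.173 and 0.299 in parenchyma and 0.128, 0.323 and 0.515 in the fat pad. On the log2 scale it averaged -5.80 ± 0.36, -2.48 ± 0.43 and -1.73 ± 0.62 (SD, n = 12 each). Liver fell below parenchyma by -3.32 and below the fat pad by -4.07 (permutation tests with 100000 resamples, adjusted p = 2.57e-05 for each). Parenchyma fell below the fat pad by -0.76 (permutation test, adjusted p = 0.00265).

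The ratio of miR-192 to miR-215, which share their seed in humans but lie in separate clusters, spread most between tissues. Its lowest, median and highest values were 179, 251 and 413 in the liver, 8.49, 18.2 and 36.0 in parenchyma and 3.18, 4.99 and 12.4 in the fat pad. The log2 means were 7.91 ± 0.33, 4.09 ± 0.55 and 2.47 ± 0.60 (SD, n = 12 each). Liver exceeded parenchyma by 3.82 and the fat pad by 5.45, and parenchyma exceeded the fat pad by 1.63 (permutation tests, adjusted p = 2.57e-05 for each). All 9 differences of ratios between tissues passed.

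**Figure D3:**
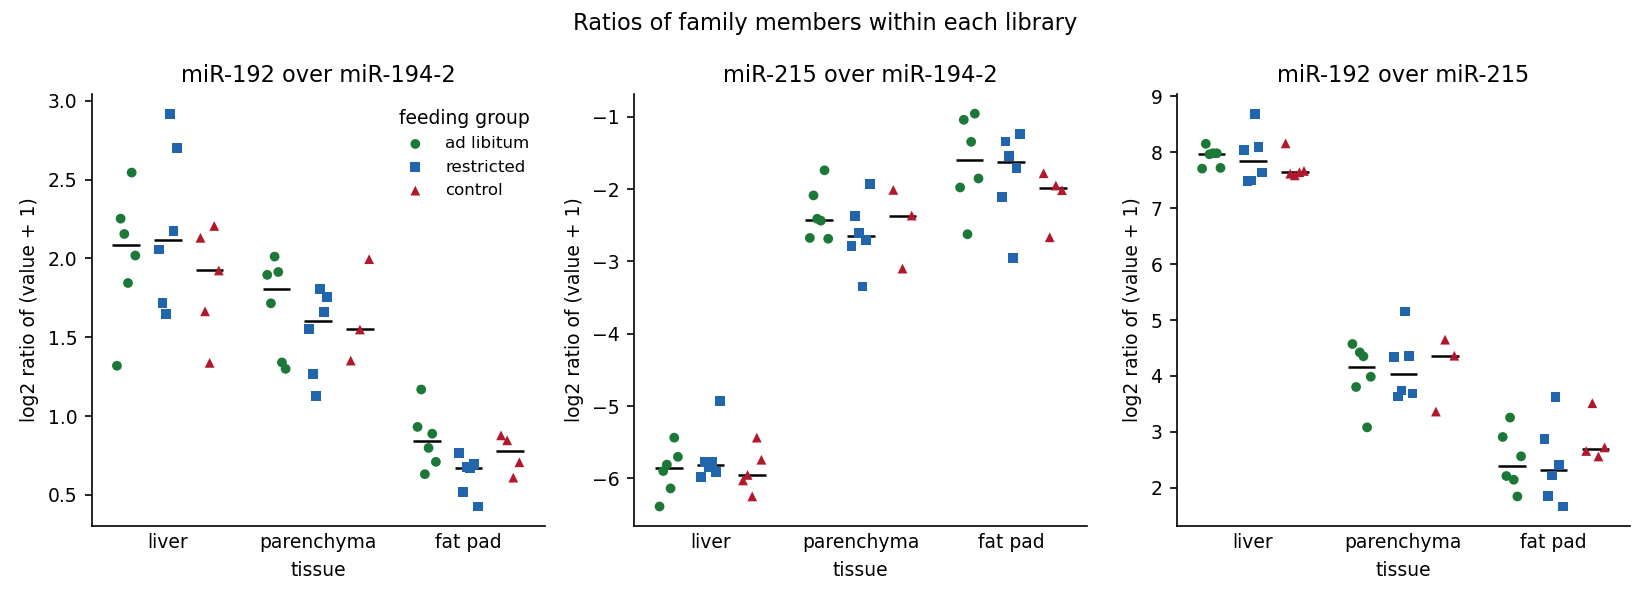
Log2 ratios of (value + 1) between members within each library (vertical axis) by tissue (horizontal axis) and feeding group (from left to right: ad libitum, restricted, control), with the group median as a black line. In milk replacer animals the miR-192 to miR-194-2 ratio averages 2.11, 1.61 and 0.74 in liver, parenchyma and fat pad, while the miR-215 to miR-194-2 ratio averages -5.80, -2.48 and -1.73.

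The third question was whether feeding changed the family. Between ad libitum and restricted animals no member was called in any tissue. In the liver the log2 fold changes were -0.24 for bta-miR-192 (95% interval -0.80 to 0.32), -0.06 for bta-miR-194-2 (-0.46 to 0.33) and -0.25 for bta-miR-215 (-0.81 to 0.30). Over all miRNAs 0.324% of 309 passed there, which is 1 miRNA (limma), and 15 had an unadjusted p below 0.05.

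In parenchyma the ad libitum against restricted values were 0.05 (-0.41 to 0.51), -0.12 (-0.59 to 0.36) and 0.17 (-0.48 to 0.82) for bta-miR-192, bta-miR-194-2 and bta-miR-215, and 0% of 339 miRNAs passed (limma; 0 had an unadjusted p below 0.05). The spread in this fit includes the 3 control parenchyma libraries, which stand apart. In the fat pad, where 16.6% of 301 miRNAs passed, the members stood at 0.12 (-0.23 to 0.46), -0.11 (-0.40 to 0.18) and 0.07 (-0.57 to 0.71). The effect of ad libitum feeding in the liver was also set against that in the other tissues. The difference between liver and fat pad passed for 0 of 4 members and 0.615% of 325 miRNAs (limma, 37 miRNAs had an unadjusted p below 0.05). The difference between liver and parenchyma passed for 0 of 4 members and 0% of 343 (limma, 2 miRNAs had an unadjusted p below 0.05). The spread in the fit of liver and parenchyma again includes the 3 control parenchyma libraries.

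Milk replacer against control animals gave no called member in the liver or the fat pad. In the liver bta-miR-192 averaged 556934 ± 194927 with milk replacer and 434022 ± 170005 in control animals (SD, n = 12 and n = 5), a log2 fold change of 0.36 (95% interval -0.16 to 0.87, limma adjusted p = 0.457). bta-miR-194-2 stood at 0.10 (-0.27 to 0.46) and bta-miR-215 at 0.18 (-0.34 to 0.69), where 6.8% of 309 miRNAs passed. In the fat pad, where 11% of 301 miRNAs passed, the values were -0.37 for bta-miR-192 (-0.71 to -0.02, limma adjusted p = 0.132), -0.35 for bta-miR-194-2 (-0.64 to -0.06, adjusted p = 0.101) and 0.03 for bta-miR-215 (-0.61 to 0.67). The difference of this effect between liver and fat pad was 0.73 for bta-miR-192 (0.09 to 1.36, limma adjusted p = 0.134), 0.45 for bta-miR-194-2 and 0.15 for bta-miR-215, and passed for 0 of 4 members and 9.85% of 325 miRNAs. Without liver control 2, the control liver library highest in bta-miR-192, its difference was 0.93 (limma adjusted p = 0.0494).

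In parenchyma all members were lower with milk replacer than in control animals, by nearly the same amount. bta-miR-192 averaged 2778 ± 367 with milk replacer and 6958 ± 2393 in control animals (SD, n = 12 and n = 3), bta-miR-194-2 averaged 914 ± 165 and 2210 ± 705, and bta-miR-215 averaged 171 ± 70.5 and 380 ± 31.2. The ranges did not overlap for bta-miR-192, bta-miR-194-1 and bta-miR-194-2. The share of all miRNAs whose ranges did not overlap was not counted, so this is not shown to be particular to the family. For bta-miR-215 the parenchyma library ad libitum 7, with 352, lay above the lowest control library with 350.

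The log2 fold changes were -1.27 for bta-miR-192 (SE 0.24, limma adjusted p = 0.000363), -1.28 for bta-miR-194-1, -1.25 for bta-miR-194-2 (SE 0.25, limma adjusted p = 0.000551) and -1.24 for bta-miR-215 (SE 0.34, limma adjusted p = 0.00674). All 4 members were called lower, where 15.3% of 339 miRNAs were, and the median over all miRNAs was 0.13. With 1 library left out at a time the log2 fold change of bta-miR-192 ranged from -1.59 to -1.07 and that of bta-miR-215 from -1.34 to -1.16, and all passed. A difference of this effect between parenchyma and the other tissues was not tested.

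These 3 control parenchyma libraries are those with low epithelial miRNAs. All 10 epithelial miRNAs were called higher with milk replacer in parenchyma (median log2 8.23). The 2 miR-126 arms were called lower (median log2 -1.90), with a sum of 52569 to 106702 with milk replacer and 172748 to 426786 in control parenchyma. The adipocyte-linked miR-378-2 was 0 to 15227 with milk replacer and 8370 to 81687 in control parenchyma, a difference that was not called (log2 -4.14). The hepatocyte-linked sum was 206301 to 410138 with milk replacer and 243823 to 642036 in control parenchyma. Of the 7 hepatocyte-linked miRNAs 1 was called lower with milk replacer. Immune miRNAs summed to 6705 to 15777 with milk replacer and to 5059, 5376 and 100531 in control libraries. The part of these cell types in the difference of the family was not tested.

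None of the ratios between members passed a test of feeding. In parenchyma milk replacer minus control was -0.02 for miR-192 over miR-194-2, 0.01 for miR-215 over miR-194-2 and -0.03 for miR-192 over miR-215 on the log2 scale (exact permutation tests, adjusted p = 0.965 for each; n = 12 and n = 3). Over 18 such tests in the 3 tissues 0 passed. The lowest p was that of miR-192 over miR-194-2 in the fat pad, with a mean of 0.85 ± 0.19 in ad libitum libraries and 0.63 ± 0.13 in restricted libraries (n = 6 each, SD; difference 0.23, exact permutation test, two-sided, p = 0.0325, adjusted p = 0.584).

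**Figure D4:**
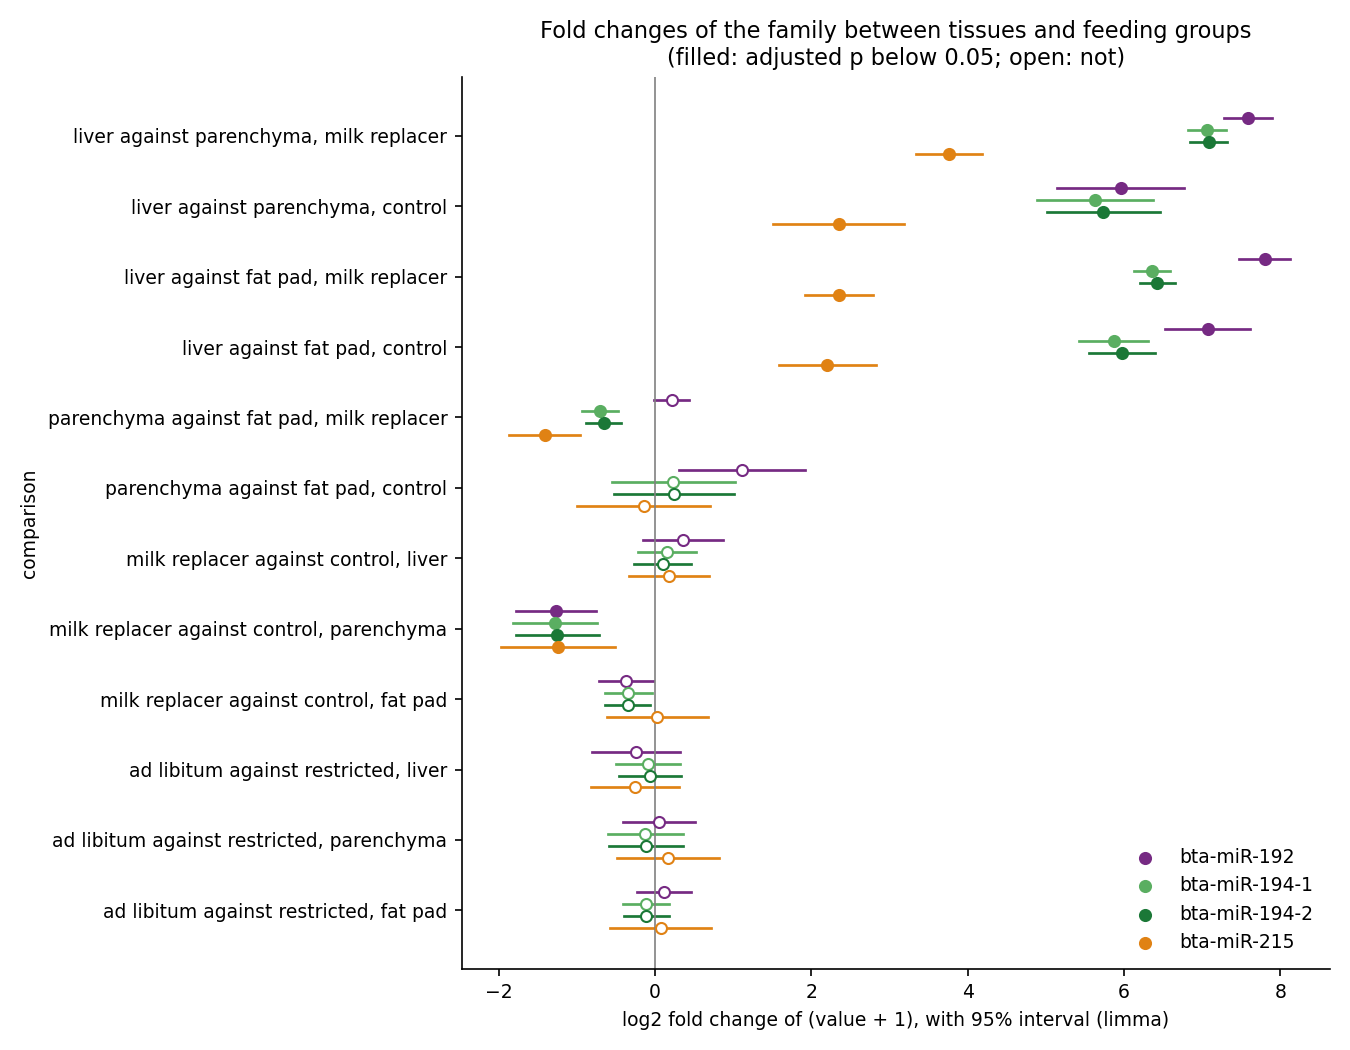
Log2 fold changes of the 4 members (horizontal axis, log2(value + 1) scale) with their 95% intervals in 12 comparisons (vertical axis), from limma. Filled points passed an adjusted p of 0.05. Liver differences of bta-miR-192 lie at 5.96 to 7.80, and the members coincide near -1.25 in milk replacer against control parenchyma.

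Finally, members were set against each other across the libraries of a tissue, on log2(value + 1), with p-values adjusted over the 9 relations computed. In the liver (n = 17) bta-miR-192 and bta-miR-215 rose and fell together, with a Pearson correlation r of 0.794 (permutation p = 1e-04, 0.00045 once adjusted) and a Spearman rho of 0.748 (permutation p = 0.00085, 0.00381 once adjusted). Without liver restricted 8 and liver control 2, the libraries farthest from the median, r was 0.648. bta-miR-215 and bta-miR-194-2 had an r of 0.707 (permutation p = 0.00061, 0.00183 once adjusted), a rho of 0.728 (permutation p = 0.00127, 0.00381 once adjusted) and an r of 0.638 without the same libraries. For this pair r was 0.434 with libraries rescaled to a sum of 1000000 (permutation test, adjusted p = 0.186).

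The genes of bta-miR-192 and bta-miR-194-2 are neighbours, although the bta-miR-194-2 row cannot be assigned to that copy alone. These rows were related past the threshold in the fat pad and not in the liver, and the difference between these tissues was not tested. Their r in the liver was 0.501 (permutation p = 0.0427, 0.0769 once adjusted), rho was 0.542 (permutation p = 0.0278, 0.0626 once adjusted), and r was 0.309 without the 2 libraries named above. In the fat pad (n = 16) r was 0.839 (permutation p = 9e-05, 0.00045 once adjusted), rho was 0.768 (permutation p = 0.00076, 0.00381 once adjusted), and r was 0.743 without fat pad ad libitum 9 and fat pad control 21.

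No relation of bta-miR-215 passed in the fat pad, nor any relation in parenchyma. In the fat pad its r was 0.0951 with bta-miR-194-2 (permutation p = 0.727, 0.727 once adjusted; rho -0.0176, adjusted p = 0.952; r 0.151 without 2 libraries) and 0.173 with bta-miR-192 (permutation p = 0.523, 0.672 once adjusted; rho 0.238, adjusted p = 0.565; r -0.00 without 2 libraries). In the 12 milk replacer parenchyma libraries r was 0.623 for bta-miR-215 with bta-miR-194-2 (permutation p = 0.0291, 0.0655 once adjusted; rho 0.538, adjusted p = 0.131; r 0.605 without 2 libraries). It was 0.248 for bta-miR-192 with bta-miR-194-2 (permutation p = 0.435, 0.653 once adjusted; rho 0.0979, adjusted p = 0.952) and 0.153 for bta-miR-192 with bta-miR-215 (permutation p = 0.63, 0.708 once adjusted; rho 0.0629, adjusted p = 0.952). Without 2 libraries these were -0.111 and 0.0177. The members of a library share its size factor, and no batch is given in the labels.

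**Figure D5:**
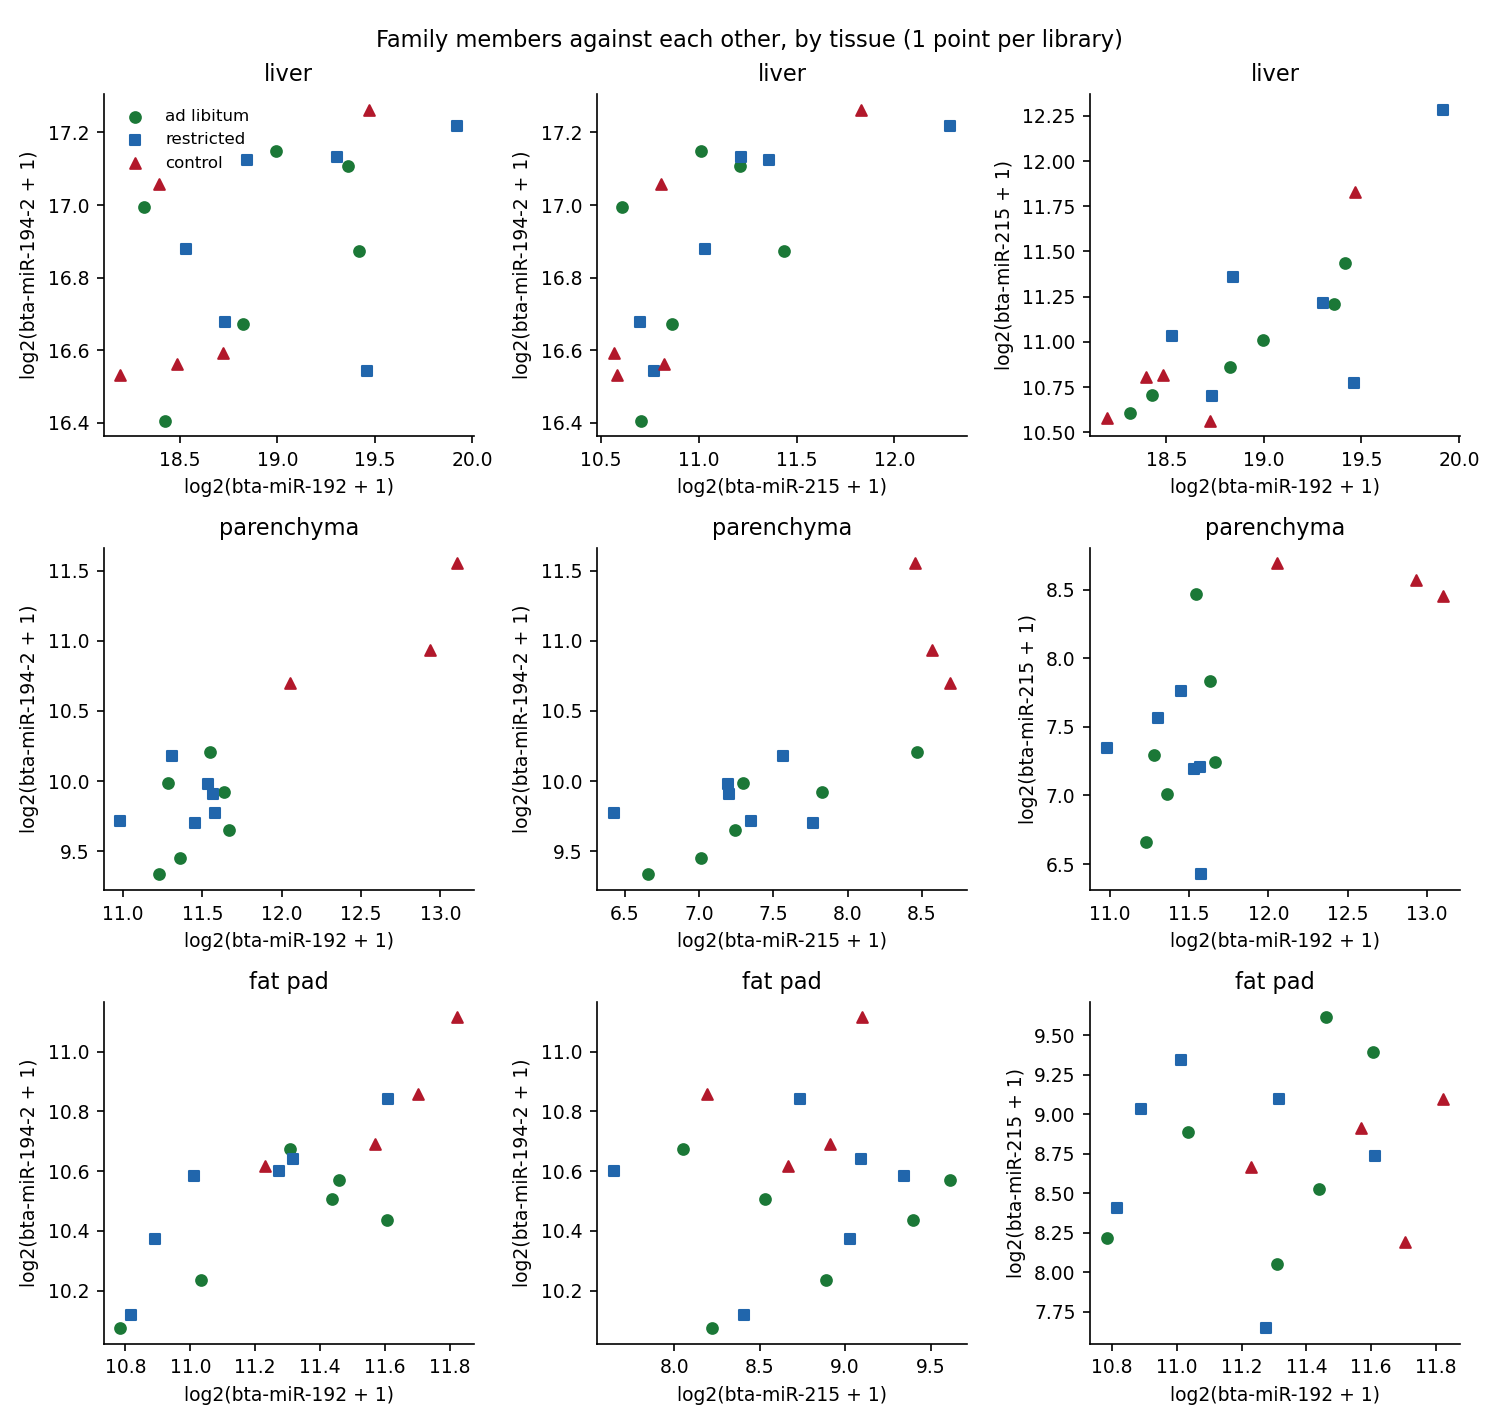
Members against each other in each library on log2(value + 1) axes, in liver (top row), parenchyma (middle row) and fat pad (bottom row), by feeding group. In liver bta-miR-192 and bta-miR-215 have an r of 0.794, and in the fat pad bta-miR-192 and bta-miR-194-2 have an r of 0.839. In parenchyma the control libraries lie apart, and r was computed without them.

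As a description with no test, the miRNAs most like each member were listed by Pearson r. Over all 48 libraries, where the contrast of liver and mammary gland sets r, bta-miR-192 was closest to bta-miR-194-2 (0.990), bta-miR-194-1 (0.990) and bta-miR-10225a (0.973), out of 345 miRNAs. bta-miR-215 was closest to bta-miR-194-1 (0.925), bta-miR-194-2 (0.921) and bta-miR-192 (0.890). Within the 17 liver libraries, out of 309 miRNAs, bta-miR-192 was closest to bta-miR-151-3p (0.866), bta-miR-24-2-3p (0.836) and bta-miR-99b (0.821), and no other member was among these. bta-miR-194-2 was closest to its copy bta-miR-194-1 (0.986), then to bta-miR-215 (0.707) and to bta-miR-22-3p (0.586). bta-miR-215 was closest to bta-miR-192 (0.794), bta-miR-194-1 (0.749) and bta-miR-3120 (0.738).

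Other miRNAs that p53 raises in human cells were listed beside the family and differed among themselves in their order of tissues. Of the 4 analysed, 1 was called higher and 2 lower in liver against parenchyma of milk replacer animals (median log2 -0.92). The lower ones were miR-34a, which acts on cell cycle genes, at a log2 fold change of -2.005 (limma adjusted p = 9.62e-08), and miR-34c, at -5.59 (limma adjusted p = 3.66e-12). miR-145 differed by 0.16 (limma adjusted p = 0.399). miR-107 was higher in liver against parenchyma by 0.52 (limma adjusted p = 5.41e-05) and against fat pad by 0.23 (limma adjusted p = 0.0280), and lower in parenchyma against fat pad by -0.29 (limma adjusted p = 0.000778), the same directions as miR-194-2 and miR-215 at a smaller size. In liver against fat pad 1 of 3 tested was called higher and 1 lower, the lower one being miR-145 at -1.05. In parenchyma against fat pad 2 of 4 were called higher, miR-34a at 1.94 and miR-34c at 3.47, and 2 lower.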

How the data were processed

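The libraries were prepared from total RNA with a small RNA kit for Illumina sequencing. The deposited values are normalised read counts per miRNA, made by the authors by dividing each library's reads by its size factor. Among the submitters' processing notes are bcl2fastq, FastQC, Trim Galore and DESeq2, with no version. Which program assigned the reads of the deposited table, and with which genome build and miRNA database, is not given in the sources used here. Comparison columns of the authors (mean, fold change, error, statistic and p) were not used.

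Reads were estimated by counting steps. Since the values are not whole counts, limma 3.58.1 (R 4.3.3, with a trend of variance on level) was fitted to log2(value + 1) of miRNAs averaging 10 or more. The feeding fits held all libraries of a tissue, and the tissue fits held the milk replacer libraries (12 per tissue) or the control libraries. Ratios and relations were tested by permutation in Python 3.11.15 (100000 resamples where each group had 10 or more libraries, otherwise all regroupings). The limma fit was also run on simulated normal values with the means and SDs of the milk replacer liver libraries. That simulation did not cover unequal spread between tissues. No library pair of 109 within groups matched within counting noise (chi-square over degrees of freedom at least 74.1), so none was merged.

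The members were chosen by name and not by a measured value. That choice, the lists and the tests were nevertheless made with earlier results of these data known. Named miRNAs are the members, the 3 most like each by Pearson r over 17 liver or all 48 libraries, and the members of the marker and p53 lists. miRNAs that share a member's seed were not compared. The alternatives were a pseudocount of 10, no filter, rescaling to a common sum or 75th percentile, a replicate block, control libraries included, and each library left out in turn.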

Additional observations from a re-analysis of the deposited data

Results flagged for a closer look

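In groups of 4 to 10 libraries, 1 library stood farther from the others than Dixon's 95% critical value allows in 5 cases of 56 examined, and chance gives about 1 in 20 (5%). bta-miR-215 was 4988 normalised read counts in liver restricted 8, while the other 5 restricted liver libraries had 1661 to 2621. It was 3634 in liver control 2, against 1514 to 1806 in the other control liver libraries. The log2 ratio of miR-215 to miR-194-2 was -4.93 in liver restricted 8, with the others at -5.98 to -5.77. The log2 ratio of miR-192 to miR-215 was 8.16 in liver control 1, with the others at 7.59 to 7.67. The same ratio was 3.51 in fat pad control 19, with the others at 2.56 to 2.72.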

How the results depend on the processing

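No result changed direction past its threshold under the alternatives run. Libraries left out aside, 343 alternative values of the main results stayed on their side of the threshold, 5 came to pass and 3 no longer passed. With libraries rescaled to a sum of 1000000, miR-192 in parenchyma against fat pad (milk replacer) was 0.68 and passed, miR-194-2 there was -0.20 and did not pass, and r of miR-215 with miR-194-2 in the liver was 0.43 and did not pass. That rescaling moved the median of all miRNAs to -0.98 for liver against parenchyma (69 higher and 208 lower, main 104 and 155), -0.47 for liver against fat pad, 0.77 for parenchyma against fat pad (204 and 78, main 167 and 109) and 0.42 for milk replacer against control parenchyma (119 and 36, main 102 and 52; 82 and 75 with a common 75th percentile). Under it the uncalled values of miR-194-1, miR-194-2 and miR-215 for milk replacer against control liver turned to -0.08, -0.14 and -0.05. With control libraries included, miR-192 in parenchyma against fat pad was 0.38 and passed. In milk replacer parenchyma r of miR-215 with miR-194-2 was 0.64 without the log and 0.69 as deviations from feeding group means, and both passed.

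The labels do not say that the replicate numbers pair libraries across tissues. Same-numbered libraries had a median correlation of deviations of 0.066 (liver and parenchyma), 0.127 (liver and fat pad) and 0.124 (parenchyma and fat pad), against -0.025, -0.027 and -0.020 for other numbers. The correlation was over 0.1 in 5 of 15, 9 of 16 and 8 of 14 pairs, and a library was closest to its own number in 1, 3 and 3 cases, so pairing was not assumed and remains a hint. With the number as a replicate block, miR-192 in parenchyma against fat pad (0.22, adjusted p = 0.0447, limma) passed, miR-215 in liver against control parenchyma (2.42, adjusted p = 0.0648, limma) did not, and all other member calls were kept.

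With 1 library left out, miR-192 ranged from 0.18 to 0.26 in parenchyma against fat pad of milk replacer animals, from 0.91 to 1.44 in control animals and from 0.61 to 0.93 for the liver minus fat pad difference of milk replacer against control. The number of members called ranged from 0 to 1 in the last 2 comparisons. The number of miRNAs called over the whole table moved by over 1.5 times in some comparisons. Between control parenchyma and control fat pad it was 6, but 13 without the filter, 3 with a pseudocount of 10, 10 with the block, 60 without parenchyma control 1 and 0 without any other single library but parenchyma control 18. Between control liver and control parenchyma it was 76, but 21 with the block and 120 without parenchyma control 18. For milk replacer against control it was 21 in the liver (9 at the lowest without a library), 33 in the fat pad (20) and 32 for their difference (12 with the block, 49 rescaled to a sum). For ad libitum against restricted it was 1 in the liver (0), 50 in the fat pad (32), 2 for liver minus fat pad (0 to 4) and 0 for liver minus parenchyma (at most 1).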
